A study of Trichosurus vulpecula with 116 samples.

Results

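Liver RNA-sequencing libraries of 21 adult male brushtail possums (*Trichosurus vulpecula*), 9 from autumn and 12 from winter to early spring, were compared. They were the adult livers among the 116 libraries of the series that had been prepared with the NEBNext kit and whose title has a second field that starts with M, and the month was read from the date in the title. The letter after the M was B, G and R in 3, 5 and 1 autumn livers and in 2, 7 and 2 winter livers, and 1 winter liver had none. For 1 autumn liver, of 14 April by its title, the study's sample list gives another day. Months 3 to 5 were taken as autumn in New Zealand and months 6 to 9 as winter, although 1 of the winter livers came from early September. The animals were possums of the Dunedin region, with no treatment and no genetic change named for either group. The tissue of the study came from animals killed in pest control and, in part, from captive animals, and which livers those were is not given in the sources used here. Neither are age beyond adult, body condition and the hour of death, so these separate animals may differ in more than season.

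The seasons were unevenly spread over years and sites. The autumn livers comprised 1 of the first collection year (18 March, Woodside Glen; year 20 in the titles) and 8 of the second (9 April to 25 May; year 21), of which 4 came from Pig Farm, 3 from South Dale Rd and 1 from Woodside Glen. The winter livers comprised 7 of the first year (10 July to 3 September), 4 from South Dale Rd and 3 from Woodside Glen, and 5 of the second year (3 June to 11 July), 2 from Pig Farm, 2 from Corstorphine and 1 from Ravensbourne. Of the sites, 3 were represented in both seasons, and Pig Farm alone had more than 1 liver of each season within 1 year. There the seasons were close together, since its last autumn liver was of 25 May and its first winter liver of 3 June. Season could therefore not be told apart from year and site by the design alone. Another 7 adult male livers, prepared with the NEXTFLEX kit in the first year (4 of 12 to 19 March and 3 of 10 June to 15 July), shared no animal and no library with the 21 and were analysed separately.

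Between 15936911 and 115914844 reads fell on genes in the autumn livers, with a median of 30512297, and between 8600754 and 58230644 in the winter livers, with a median of 22266303. The deposited value of a gene is the log2 of CPM, its reads scaled to the library total. It is not divided by gene length, so levels are compared here only within a gene. Genes with 0 reads carry the value that 0.9 of a read would have, which put the lowest value of a library between -7.09 and -3.33 depending on its depth. Mean log10 reads on genes were 0.20 higher in autumn, and neither this nor the number of genes with a read, the share of the library on genes or the share of reads on the 20 most abundant genes passed a two-sided exact permutation test (exact p from 0.100 to 0.909, Benjamini-Hochberg adjusted p from 0.256 over the 4 measures). The share of reads on the 10 mitochondrial genes ranged from 2.73 to 7.75% in autumn and from 1.32 to 17.3% in winter (exact permutation p = 0.193).

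The liver holds the body's main pathways of fuel handling. It makes fatty acids and cholesterol in the fed state, and in fasting it oxidises fatty acids, makes ketone bodies and produces glucose from amino acids and lactate. It also makes most plasma proteins, clears foreign compounds from the diet and responds to growth hormone, androgens, thyroid hormone and the daily clock. In New Zealand the possum feeds largely on leaves, and most of its births fall in autumn.

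The tissue label was borne out by the markers. Of 12 hepatocyte markers, 9 were matched and all 9 had reads in all 21 livers, with a summed level of 36361 to 66264 CPM in autumn and 28732 to 57280 CPM in winter. Fibrinogen beta (*FGB*) was the most abundant of them, at a mean of 18246 CPM. Markers of pancreas summed to at most 0.354 CPM in any liver, those of adrenal cortex to at most 0.455 CPM and those of kidney to at most 1.09 CPM, and *UMOD*, *SLC12A3* and *AQP2* of the kidney list had no read in any liver. Summed levels of blood and immune cell markers overlapped between seasons. The red cell list summed to 13.9 to 664 CPM in autumn and 4.58 to 1217 CPM in winter (medians of 43.1 and 26.6 CPM). The T and NK cell list summed to 11.9 to 39.9 CPM in autumn and 16.2 to 74.3 CPM in winter, and the macrophage list to 431 to 930 CPM and 355 to 1144 CPM (medians of 528 and 613 CPM).

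One library stood apart. The winter liver from Corstorphine of 11 July of the second year (winter liver 11) supplied 79.4% of the first principal component, which held 17.5% of the variance over the 11961 genes with a mean log2 CPM of at least 0. In this liver, 428 of these genes were more than 1 log2 unit above all 20 other livers and 172 were more than 1 unit below. *IGFBP1*, an insulin-repressed binding protein of the insulin-like growth factors, was at 11.7 log2 CPM against 3.76 to 8.54 in the others, and *IGFALS*, which carries those factors in plasma, at 0.46 against 3.22 to 8.41. The immediate early gene *FOS* (8.03 against at most 5.97) and the cell cycle inhibitor *CDKN1A* (7.03 against at most 4.77) were high as well, while *CREB3L3*, a fasting-induced transcription factor, was low (4.46 against at least 5.39). The mean of the 18 immediate early genes was 6.01 log2 CPM in this liver and at most 3.29 in any other. Season explained 2.49% of the first component, 14.5% of the second and 17.0% of the third, year explained 7.38, 15.0 and 0.79%, and site 47.7, 27.0 and 61.9%. These shares are descriptions, since season, year and site overlap.

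**Figure D1:**
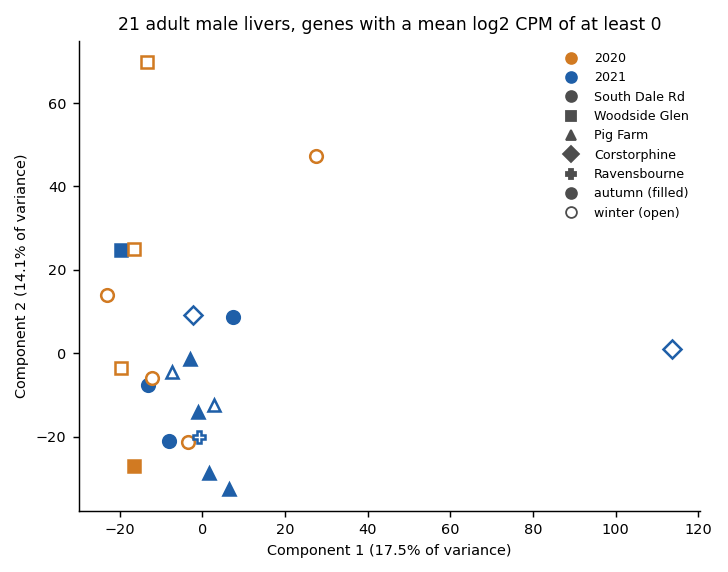
Scores of the 21 livers on the first 2 principal components (17.5 and 14.1% of the variance) of the log2 CPM values of 11961 genes; colour gives the year, shape the site, filled symbols autumn and open symbols winter. Winter liver 11 from Corstorphine lies alone on the first component, and the seasons overlap on both components, with 3 of the 9 autumn livers below all winter livers on the second.

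To ask whether the liver transcriptome differed between the seasons, all 16606 genes with a read in at least 9 of the 21 livers were tested with limma. At a Benjamini-Hochberg adjusted p under 0.05, 0 genes were called (0% of those tested), and the lowest adjusted p was 0.0540. At an unadjusted p under 0.05 there were 1445 genes (8.7%), 947 higher in autumn (5.7%) and 498 higher in winter (3%). Counts with other tools were similar, at 0 with limma's trend, 0 with voom and 2 when values below 0 were set to 0. The median log2 difference over all genes, autumn minus winter, was 0.05.

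The size of the differences that could have gone unseen can be read from the intervals. The median half-width of the 95% confidence interval (CI) was 0.49 log2 units over all genes tested and 0.40 over the 11961 genes with a mean of at least 0. For 10215 of these 11961 (85.4%) the whole interval lay within 1 log2 unit of no difference, and 134 had an estimate of at least 1 in either direction. Differences smaller than these half-widths could not be told from none, and the absence of calls does not show that the seasons were alike.

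Among genes with a mean of at least 0, the 10 with the smallest p in each direction are described here. None passed the adjusted threshold in the main comparison, their adjusted p-values lying between 0.437 and 0.563 (limma).

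*LOC118843345*, a protein-coding gene on chromosome 1 (assembly mTriVul1.pri, chr1:297743275-297760991, plus strand) for which the annotation used here gives no name, was among the genes with the smallest p and had the largest estimate in the named set. Its level was 1.74 to 3.93 log2 CPM in autumn (median 2.68) and -3.87 to 2.29 in winter (median -0.33). All 9 autumn livers lay above 11 of the 12 winter livers, and the exception was a South Dale Rd liver of 10 July of the first year. The log2 difference was 3.24 ± 0.68 (SE; 95% CI 1.82 to 4.66, limma, unadjusted p = 0.000105, adjusted p = 0.437), and setting values below 0 to 0 gave a smaller difference of 2.13 with an adjusted p of 0.0282. At Pig Farm the 4 livers of May held 2.10 to 3.38 and the 2 of June 1.20 and 1.67. Its lowest value was that of the Corstorphine liver of 9 June, which had no read on the gene.

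*TPD52*, which codes for a protein of vesicle and lipid droplet traffic, lies further along chromosome 1 (chr1:298940794-299065423, minus strand) and went the other way. It was at 2.33 to 4.52 log2 CPM in autumn (median 3.55) and 3.82 to 5.46 in winter (median 4.77), a log2 difference of -1.14 ± 0.25 (SE). Of the 12 winter livers, 9 lay above all autumn livers.

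*EIF2S3*, coding for a subunit of the translation initiation factor eIF2, was, with values below 0 set to 0, the 1 gene of the 16606 tested (0.00602%) whose seasons did not overlap. Its level was 5.46 to 5.86 log2 CPM in autumn (median 5.71) and 5.92 to 6.30 in winter (median 6.12). The difference was small and the spread smaller, at -0.41 ± 0.09 log2 units (SE; limma, unadjusted p = 0.000102, adjusted p = 0.437, and 0.0384 with values below 0 set to 0). At Pig Farm the June livers (5.92 and 5.98) were just above the highest May liver (5.86).

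*ENTPD3*, an ectonucleotidase, had the lowest adjusted p of all (0.0540) but rested on few reads. The autumn livers had 0 to 1 reads each and the winter livers 0 to 26, with a median of 2, so the seasons overlapped in reads. Its deposited values did not overlap (0.012% of genes tested, 2 with *EIF2S3*), but the highest autumn value (-4.23) and the lowest winter value (-4.13) are those given to 0 reads in 2 libraries and differ by depth alone. The gene was outside the rule for named genes because of its low level, so it was chosen after its values were seen. Among the autumn livers 4 had no read, and the part of depth in its log2 difference of -2.33 was not tested.

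*JAML*, an adhesion molecule of leukocytes, had the smallest p among the named genes higher in winter. It was at -0.03 to 1.34 log2 CPM in autumn (median 0.84) and 0.96 to 2.22 in winter (median 1.61). The difference was -0.82 ± 0.17 (SE; limma, unadjusted p = 8.66e-05, adjusted p = 0.437), and 9 of 12 winter livers lay above all autumn livers. In the T and NK cell list, 3 of the 11 members tested were higher in autumn, with a median difference of -0.16 and none at an unadjusted p under 0.05. The part of leukocyte number in the level of *JAML* was not tested, and in bulk tissue fewer cells of a type and less RNA per cell cannot be told apart.

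**Figure D2:**
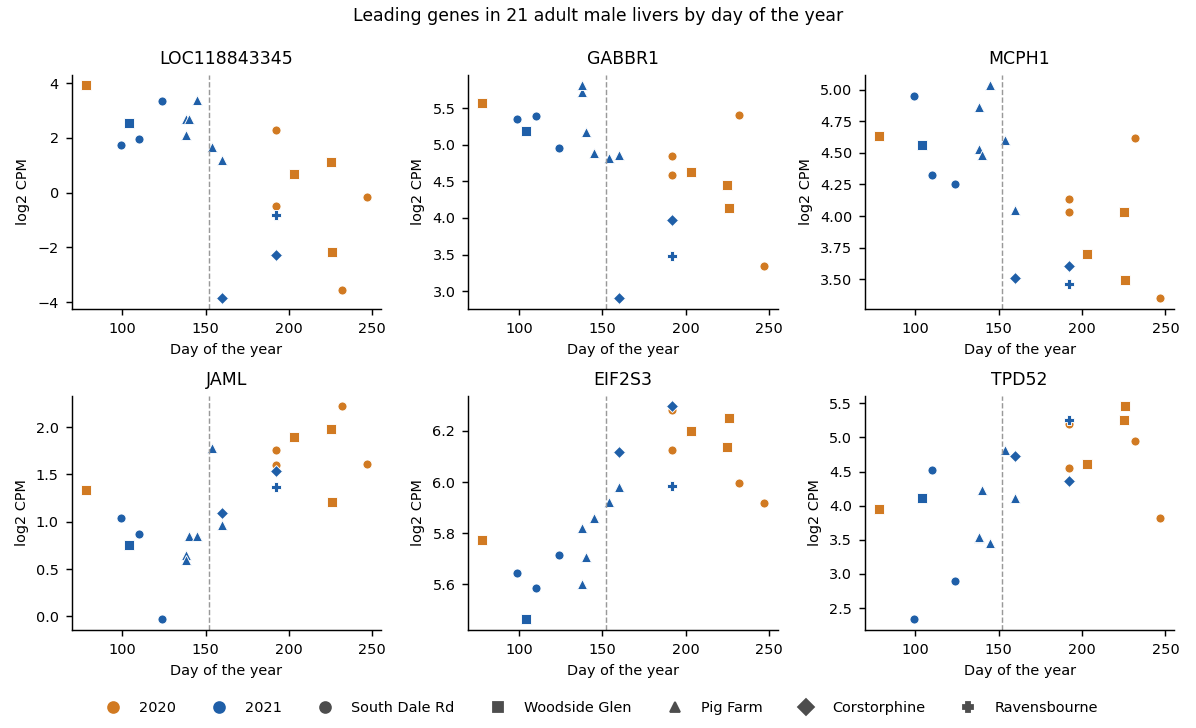
Level (log2 CPM) of 6 genes against the day of the year of each of the 21 livers; colour gives the year, shape the site, and the dashed line the start of June. *LOC118843345*, *GABBR1* and *MCPH1* were chosen by p among genes higher in autumn and *JAML*, *EIF2S3* and *TPD52* among genes higher in winter, so the step at the line is what selected them; the *EIF2S3* values of the seasons do not overlap, those of the other 5 do.

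The remaining genes higher in autumn were the receptor subunit *GABBR1* (log2 difference 1.06), the activin receptor *ACVR1B* (0.66), the WNT pathway component *APC* (0.41), the kinase *MAP3K13* (0.75), the transcription factor *RREB1* (0.63), *BRWD3* (0.76), the glucocorticoid-induced *GLCCI1* (0.68), and *MCPH1* (0.75) and *BRCA1* (1.37), which act in DNA repair and chromosome condensation. In each of these 9 genes all 9 autumn livers lay above the winter median, and between 1 and 7 of them lay above all of winter. The remaining genes higher in winter were *TMEM128* (-0.51), *CARS1*, the cysteinyl-tRNA synthetase (-0.62), *ACSM5*, of the mitochondrial medium-chain acyl-CoA synthetases (-1.32), and the unnamed genes *LOC118838382* (-0.48), *LOC118828947* (-2.43), *LOC118853388* (-1.76) and *LOC118837372* (-1.40). In 6 of these 7 all autumn livers lay below the winter median, and the exception was *TMEM128*, with 8 of 9. The named genes were chosen by p in these same livers, so this separation is what selected them, and its share over all genes was not counted.

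These values moved with year and site. With year as a covariate, *ACSM5* went from -1.32 to -0.91 and *JAML* from -0.82 to -0.60, whereas *CARS1* went from -0.62 to -0.83 and *GABBR1* from 1.06 to 1.26. Among the 18 livers of the 3 sites found in both seasons, with site as a covariate, *LOC118843345* was at 2.50 and *GABBR1* at 0.73. Within Pig Farm, where 4 livers of May met 2 of June, *RREB1* was at 0.06, *ACVR1B* at 0.10 and *MAP3K13* at 0.11. Since the genes were chosen on a comparison that includes these livers, their common direction here is no separate evidence.

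The 13 livers of the second year gave a comparison within 1 year, 8 of autumn against 5 of winter. At an unadjusted p under 0.05 there were 6.63% of the 17082 genes tested, 2.85% higher and 3.78% lower in autumn. With adjustment 1 gene was called (0.00585%), *TMEM184A*, a membrane protein gene, which was higher in autumn. It was at 1.96 to 2.88 log2 CPM in the 8 autumn livers and -0.39 to 1.21 in the 5 winter livers, without overlap, as for 30 of the genes tested (0.176%, or 0.129% with values below 0 set to 0). The log2 difference was 2.10 ± 0.26 (SE; limma, adjusted p = 0.0302). In the winter of the first year the gene was at 1.01 to 2.79, overlapping both groups, and its difference over all 21 livers was 1.04 (adjusted p = 0.563). The call was lost with voom and when any of 10 of the 13 livers was left out. It was named after its values were seen.

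The NEXTFLEX livers offered animals and libraries apart from the main comparison, with March against June and July of the first year. Autumn came from South Dale Rd (3) and Woodside Glen (1), and winter from the site coded BB (2) and South Dale Rd (1), so month and site again overlapped. Of 16210 genes, 1 was called (0.00617%), the DNA replication helicase *DNA2*, at -4.74 to -3.98 log2 CPM in autumn and -1.38 to -1.20 in winter (log2 difference -3.19 ± 0.23 SE, limma, adjusted p = 0.0366). The autumn livers had 0 to 1 reads on the gene and the winter livers 5 to 15, so the autumn values lie at or near the floor, and the part of the floor was not tested. This call was lost with voom, under a mean of at least 0 and when any of 4 of the 7 livers was left out, and in the NEBNext livers the gene differed by 0.45 the other way (adjusted p = 0.836). It too was named after its values were seen. At an unadjusted p under 0.05 there were 2516 genes (15.5%), of which 2079 were lower in autumn (12.8%) and 437 higher (2.7%). The median over all genes was -0.21, which became -0.05 after scaling to the 75th percentile and -0.02 with voom, so differences of that size in these livers depend on the scaling.

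*LOC118843345* was again higher in autumn in these animals. Its level was 3.11, 3.90, 3.05 and 3.13 log2 CPM in the 4 livers of March and 1.66, 1.79 and 1.63 in the 3 livers of winter, so the groups did not overlap, as was the case for 15.2% of all genes in this small comparison (12.8% with values below 0 set to 0). The log2 difference was 1.60 ± 0.26 (SE), with an unadjusted p of 0.000419 and an adjusted p of 0.128 in limma.

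*JAML* was again lower in autumn. It was at 0.36, 0.02, -0.68 and 0.72 log2 CPM in March and 1.03, 1.74 and 1.34 in winter, also without overlap (log2 difference -1.27 ± 0.37 SE, limma, adjusted p = 0.232). *LOC118837372* was at 3.85 to 6.16 in March and 6.43 to 9.28 in winter (-2.14 ± 0.83 SE, adjusted p = 0.296). None of these passed the adjusted threshold in either set of animals.

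Of the 20 genes, 7 had the same sign in the NEXTFLEX livers, 2 of the 10 higher in autumn and 5 of the 10 lower, where 65.7% of all genes were lower in autumn (53.7% after scaling to the 75th percentile). The groups did not overlap in 6 of the 20, as for 15.2% of all genes. Of these 6, *LOC118843345*, *JAML* and *LOC118837372* kept their direction, and *GABBR1*, *GLCCI1* and *RREB1* were reversed. At an unadjusted p under 0.05 (limma) there were 7 of the 20 in either direction, beside 15.5% of all genes. *EIF2S3* differed by 0.20 ± 0.21 (SE) the other way and *TPD52* by 0.05 ± 0.73. *RREB1* was at 4.28 to 4.85 log2 CPM in March and 5.35 to 6.02 in winter, against 4.75 to 5.31 and 3.84 to 5.16 in the NEBNext livers.

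**Figure D3:**
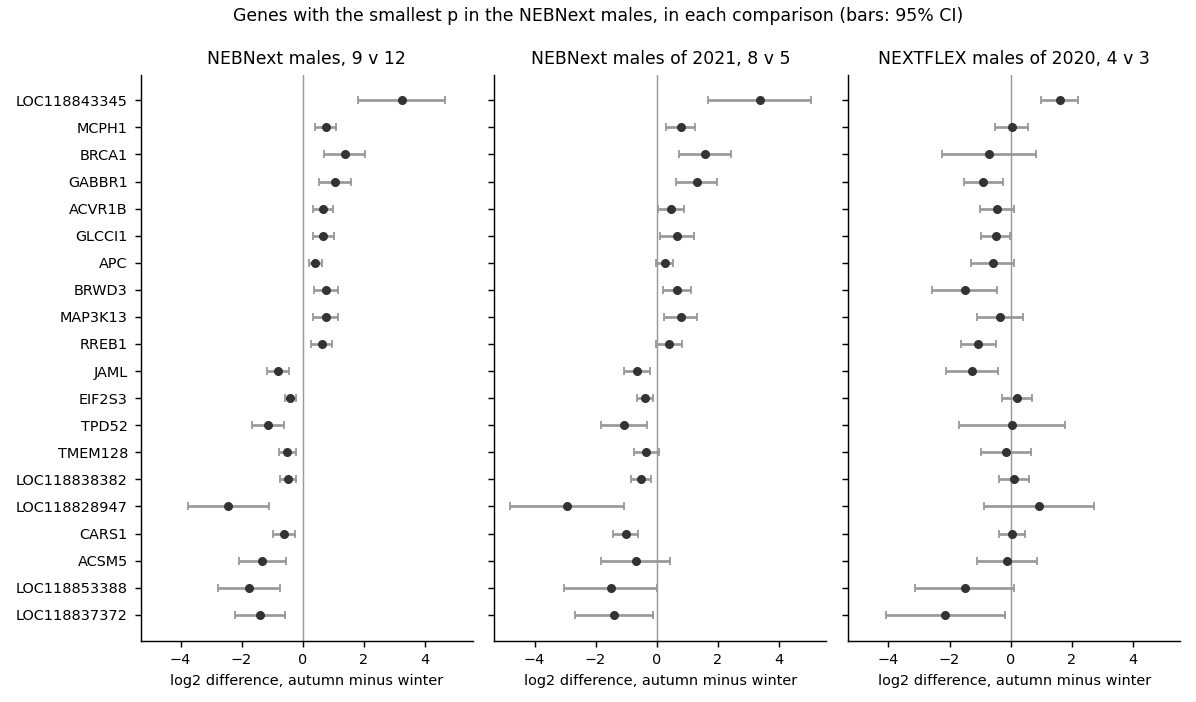
Log2 difference, autumn minus winter, with its 95% CI for the 20 genes with the smallest p in the 21 NEBNext livers (left), in the 13 of the second year alone (middle, part of the same livers) and in the 7 NEXTFLEX livers (right, other animals). *LOC118843345* is right of 0 in all 3 panels and *JAML* left of 0, and 8 of the 10 genes higher in autumn on the left have an estimate below 0 on the right.

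The difference between the kits was itself tested in one model of all 28 adult male livers. Of 17352 genes, 179 (1.03%) had a seasonal difference that differed between kits. Of these, 173 were lower in NEXTFLEX, as were 61.8% of all genes (52.9% after scaling to the 75th percentile). A difference above 0 with NEBNext and below 0 with NEXTFLEX was found in 172 of the 179. Choosing genes by this test favours such opposite signs, and their share over all genes was not counted. *GABBR1*, *APC*, *BRWD3* and *RREB1* of the named genes were among the 179 (adjusted p = 0.0457, 0.0457, 0.0229 and 0.0229, limma), and the calls of *BRWD3* and *RREB1* held in all 5 alternatives while those of *GABBR1* and *APC* did not. The number depended on scaling, at 78 after scaling to the 75th percentile and 109 with voom (31 higher and 78 lower in NEXTFLEX), and 60 of the 179 were called in all 5 alternatives. The kits differ in input RNA, read length and sequencer, and their livers in part in year, month and site, and these cannot be told apart.

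No member of any of the 22 pathway and study lists or the 17 cell type lists was called in the main comparison. The lists are therefore described by their counts and medians, beside the median of 0.05 over all genes, of which 57.3% were higher in autumn.

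Most fatty acid oxidation and ketone synthesis genes had estimates above 0. Of the 21 genes tested, 18 were higher in autumn, 5 of them at an unadjusted p under 0.05 (23.8% of the list, where 8.7% of all genes passed in either direction), and the median difference was 0.25. The count of 5 was 3 without winter liver 11, from 1 to 6 over all livers left out in turn, 2 with year and 1 with site as a covariate (1 lower). It was 1 within the second year and 1 in the NEXTFLEX livers (1 lower), where 6.63 and 15.5% of all genes passed. Hepatocyte markers had a median of the same size, 0.27, with 2 of 9 at an unadjusted p under 0.05 (median 0.13 with 5 of 9 higher without winter liver 11) and a list mean of 11.5 ± 0.10 log2 CPM (SD, n = 9) in autumn and 11.3 ± 0.23 (SD, n = 12) in winter, and the part of hepatocyte RNA in these lists was not tested. *CREB3L3* was at 6.45 to 7.55 log2 CPM in autumn (median 7.12) and 4.46 to 7.39 in winter (median 6.59), with 4 of the 12 winter livers below all of autumn. Its difference was 0.69 ± 0.29 (SE; 95% CI 0.08 to 1.30, limma, adjusted p = 0.564). It was 0.26 with site as a covariate, a fit that leaves out winter liver 11, which held the lowest value. *CPT1A*, the gatekeeper of mitochondrial fatty acid entry, was at 5.72 to 7.87 in autumn (median 7.22) and 4.67 to 7.58 in winter (median 6.27), a difference of 0.82 ± 0.38 (SE), which was 0.37 with year as a covariate. *PPARA*, the nuclear receptor that drives these genes, differed by 0.54 and the lipid droplet protein *PLIN2* by 0.79. The seasons overlapped in each of these 4 genes. The list median was 0.27 with year as a covariate, 0.17 with site, 0.14 without winter liver 11 and 0.37 within the second year. In the NEXTFLEX livers it was 0.03, beside -0.21 over all genes. There *CREB3L3* differed by 0.43, *CPT1A* by 0.77, *PLIN2* by 0.76 and *PPARA* by -0.78.

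The adipocyte list, which holds lipid droplet genes, had medians on the same side. *PLIN1* differed by 1.28 and *CIDEA* by 1.20, both with few reads (medians of 8 and 30 per liver). All 5 members tested had estimates above 0 (median 0.45, and 0.29 with values below 0 set to 0). This was so for 3 of 5 within the second year (median 0.11) and 2 of 5 in the NEXTFLEX livers (median -0.28). The summed level of the list was 140 to 290 CPM in autumn (median 209) and 101 to 272 CPM in winter (median 166), *CIDEC* being the most abundant gene at a mean of 103 CPM, and the part of fat cells in the samples was not tested.

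Most oxidative phosphorylation genes had small estimates below 0. Of 28 nuclear genes of the respiratory chain tested, 27 were lower in autumn, with a median of -0.17 and 3 at an unadjusted p under 0.05 (10.7% of the list, near the 8.7% of all genes). None passed with site as a covariate (median -0.09, 5 of 28 higher) or within the second year (-0.13, 5 of 28 higher). The 3 were *SDHD* of complex II (-0.28) and *NDUFA1* (-0.34) and *NDUFS1* (-0.22) of complex I. *SDHD* was at 6.26 to 6.87 log2 CPM in autumn and 6.51 to 7.24 in winter. In the NEXTFLEX livers 25 of the 28 were higher in autumn, with a median of 0.20, so the direction was not shared by those animals. Mitochondrial reads were on average 1.87 percentage points lower in the autumn livers, and 17.3% in winter liver 11, without which they were 0.99 points lower and the list median was -0.15, and the part of mitochondrial content was not tested.

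Cholesterol and growth factor lists had more members above 0 than below. In cholesterol synthesis and uptake 18 of 22 genes were higher (median 0.24), against 15 of 22 without winter liver 11 (median 0.12), 14 within the second year (0.10) and 12 in the NEXTFLEX livers (0.09), but all 22 with year (0.41) or site (0.48) as a covariate. In this list *NSDHL*, a demethylating enzyme of the pathway, differed by 0.86 (unadjusted p = 0.00825, limma). In the growth hormone, insulin and IGF axis 14 of 16 were higher (median 0.28), with the insulin receptor *INSR* at 0.66 and its substrate *IRS1* at 0.41. The median of this second list was 0.28 with site as a covariate (14 of 16 higher), 0.06 with year as a covariate and 0.03 within the second year, where *INSR* differed by 0.04. In the NEXTFLEX livers it was -0.36, with 7 of 16 above 0, beside a median of -0.21 over all genes. At an unadjusted p under 0.05 there were 2 higher and 4 lower, where 2.7% of all genes were higher and 12.8% lower. In these livers *INSR* was at 4.14 to 5.36 log2 CPM in March and 5.74 to 6.63 in winter, without overlap, as for 15.2% of all genes.

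**Figure D4:**
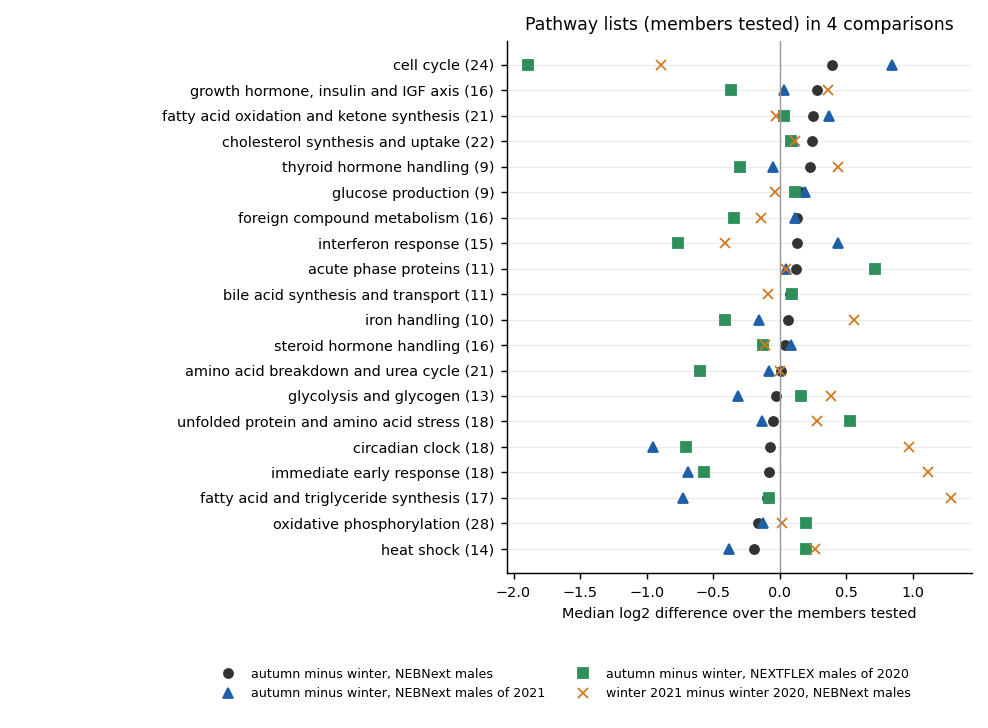
Median log2 difference of the members tested of each pathway list (number in parentheses) for autumn minus winter in the 21 NEBNext livers, in the 13 of the second year and in the 7 NEXTFLEX livers, and for the winter of the second year minus that of the first. The 21-liver medians lie between -0.19 and 0.39, and medians in the other comparisons spread wider, from -1.89 (cell cycle, NEXTFLEX) to 1.29 (fatty acid and triglyceride synthesis, between the winters).

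For some genes with a small p between the seasons, the estimate between the winters was larger. *APOB*, the protein of very low density lipoprotein, was at 11.6 to 12.2 log2 CPM in autumn and 10.3 to 12.3 in winter (difference 0.68, unadjusted p = 0.00515, limma). The winter livers of the first year held 10.3 to 12.0 and those of the second 11.3 to 12.3, a difference of 0.86 between the winters, and within the second year the seasonal difference was 0.14. The gluconeogenic enzyme pyruvate carboxylase (*PC*) gave 0.64 over the 21 livers, 0.03 within the second year and 1.11 between the winters, second minus first.

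To set year and site beside season, the winter livers of both years were compared. Between the 5 winter livers of the second year and the 7 of the first, 0 of 16533 genes (0%) were called by limma, by its trend and by voom. There were 1891 genes (11.4%) with an unadjusted p under 0.05, 9.31% higher and 2.13% lower in the second year, and the median over all genes was 0.11 (-0.02 after scaling to the 75th percentile). No site had winter livers of both years, so year and site cannot be told apart here.

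Fatty acid and triglyceride synthesis had the highest pathway median between the winters, and it rested in part on 1 liver. All 17 genes tested had a higher mean in the second winter, with a median of 1.29, while the seasonal median was -0.10, and -0.72 within the second year (none higher). With site as a covariate, in 18 livers that leave out the Ravensbourne liver, the seasonal median was 0.41 (15 of 17 higher). Without the Ravensbourne liver of 11 July (winter liver 12) the median between the winters was 0.71, with 14 of 17 higher, below those of the immediate early (1.05) and clock (0.85) lists, the first of which, at 1.11 over all livers, was 0.55 without winter liver 11. Without winter liver 12 the seasonal median of fatty acid and triglyceride synthesis was 0.21. In this liver, the fatty acid synthase *FASN* was at 11.8 log2 CPM against 3.61 to 9.15 in the other 20 livers, *ACLY*, which supplies its acetyl-CoA, at 11.6 against 2.77 to 6.05, *SCD*, which makes monounsaturated fatty acids, at 13.8 against 5.10 to 10.5, and *ACACA*, the first committed enzyme, at 10.3 against 3.65 to 7.84. Their regulator *SREBF1* (8.80 against at most 6.10) and the lipid droplet lipase *PNPLA3* (8.21 against at most 3.59) were high in the same liver. *FASN* was next highest in the single autumn liver of the first year (9.15), so its seasonal difference of -0.02 ± 0.79 (SE; 95% CI -1.67 to 1.62) says little about season.

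**Figure D5:**
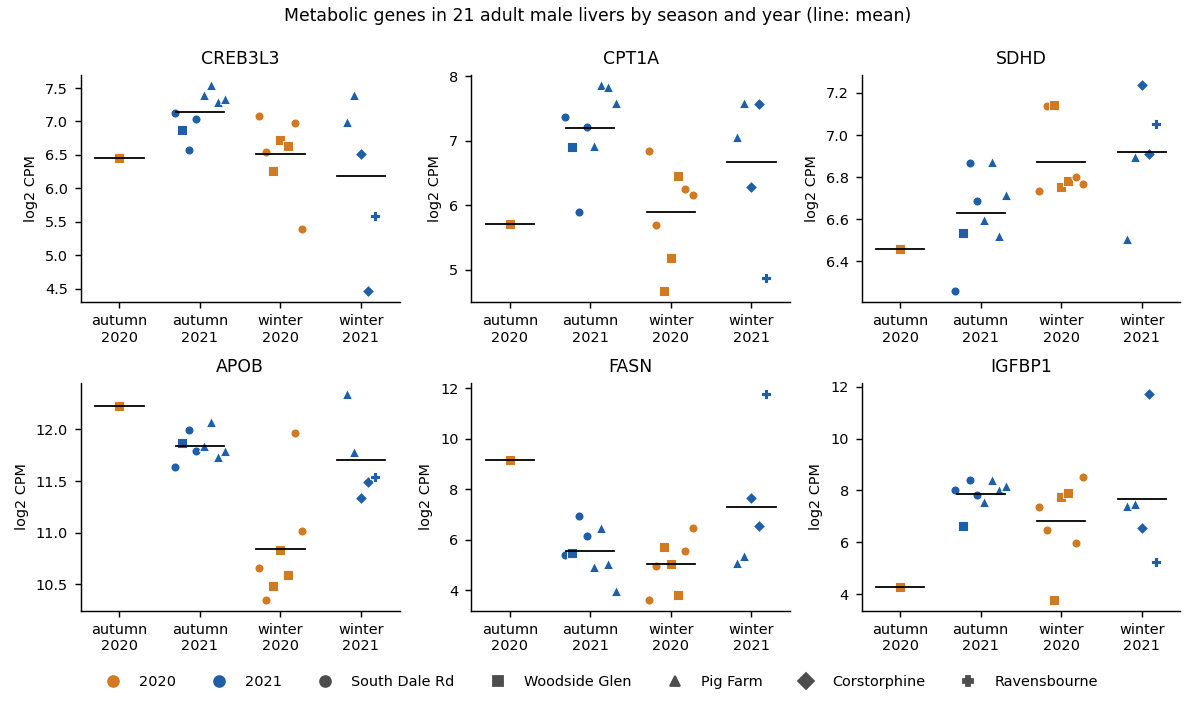
Level (log2 CPM) of 6 metabolic genes in the 21 livers by season and year, with shapes for sites and a line for the mean of each group (autumn of the first year is 1 liver). *CREB3L3* and *CPT1A* overlap between the seasons, *APOB* is low in 6 of 7 livers of the first winter, *FASN* is highest in the Ravensbourne liver and *IGFBP1* in winter liver 11 from Corstorphine.

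Cell division genes gave estimates of opposite sign in the kits, and the size of the NEBNext median rested on 1 liver. In the NEBNext livers 21 of 24 cell cycle genes were higher in autumn (median 0.39) with none at an unadjusted p under 0.05, and the list mean was between -1.16 and 3.45 log2 CPM, the highest being a South Dale Rd liver of 9 April of the second year (autumn liver 2). Without that liver the median was 0.04, with 13 of 24 higher. In the NEXTFLEX livers all 24 were lower in autumn (median -1.89), 17 of them at an unadjusted p under 0.05 (12.8% of all genes passed in that direction), and none was called. The proliferation marker *MKI67* was at -1.69, 0.27, -0.0035 and 0.55 log2 CPM in the 4 livers of March and 3.68, 3.11 and 2.01 in the 3 of winter. The difference of the seasonal differences had a median of -2.50 over the list, and 16 of 24 members had an unadjusted p under 0.05, where 17.7% of all genes did, and none was called.

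*DIO1*, which activates thyroid hormone, had a difference of -0.48 (unadjusted p = 0.0466, limma), whose p passed 0.05 when any of 12 livers was left out (up to 0.0976), while the medians of steroid and thyroid hormone handling were 0.04 and 0.23. The thyroid median ranged from 0.10 to 0.27 with each liver left out. It was 0.08 with year as a covariate, 0.29 with site, -0.05 within the second year and -0.30 in the NEXTFLEX livers. *ATF4*, a stress-responsive transcription factor downstream of eIF2, differed by -0.49, and 12 of 18 members of its list were lower in autumn, whereas 16 of 18 were higher in the NEXTFLEX livers (median 0.53). Heat shock genes were lower in autumn in 12 of 14 (median -0.19) and higher in 11 of 14 in NEXTFLEX (0.20), and their mean was highest in winter liver 11 (5.92 against at most 5.35 log2 CPM). Of 11 members tested of the acute phase list, not all of which code for such proteins, 9 were higher and 2 lower in autumn (median 0.12), with *STAT3* at 0.50 and *ORM1* at -1.47. In the NEXTFLEX livers the median was 0.72, with 3 higher at an unadjusted p under 0.05, where 2.7% of all genes were. There *ORM1* was at 10.8 to 11.3 log2 CPM in autumn and 9.97 to 10.5 in winter. This was the other way and without overlap, as for 15.2% of all genes in these livers. In foreign compound metabolism 10 of 16 were higher (median 0.13), and the 10 cytochrome P450 genes that the study had chosen on these samples had a median of 0.01. The P450 median was 0.55 within the second year (9 of 10 higher), -0.23 with site as a covariate and -0.80 between the winters. In the NEXTFLEX livers 3 of 16 foreign compound genes (median -0.34) and 2 of 10 P450 genes (-0.46) were higher in autumn. The biliary keratins *KRT7* (-1.48) and *KRT19* (-1.68) were lower in autumn, as were 7 of the 10 cholangiocyte genes, while the summed levels of that list overlapped (medians of 67.1 and 66.2 CPM), *SLC4A2* being the most abundant gene at a mean of 31.9 CPM.

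The lipocalin genes of urinary proteins and the clock genes gave no seasonal call in the 21 livers. Vulpeculin (*LOC118842298*) was at 10.6 to 12.7 log2 CPM in autumn and 8.64 to 12.9 in winter (difference 0.52 ± 0.39 SE, 0.29 to 0.67 with each liver left out) and ganderin (*LOC118843263*) at 7.28 to 9.71 and 6.54 to 9.14 (0.28 ± 0.35, 0.10 to 0.40). Within the second year both were higher at an unadjusted p under 0.05 (1.09 and 0.93), where 2.85% of all genes were. With site as a covariate, in 18 livers that leave out winter liver 12, both lipocalins were near no difference, at 0.04 and -0.12. Between the winters the median of both was -1.01, or -0.65 without winter liver 12, which held the lowest value of each. Of 18 clock genes, 9 were higher in autumn (median -0.07). At an unadjusted p under 0.05 *NPAS2* (1.02) and *CLOCK* (0.58) were higher and none was lower, beside 5.7 and 3% of all genes. Within the second year 5 were higher, with a median of -0.95. There 6 were lower and 1 higher at an unadjusted p under 0.05, beside 3.78 and 2.85% of all genes. In the NEXTFLEX livers 4 were higher (median -0.70), and 5 were lower and 0 higher at that threshold, beside 12.8 and 2.7% of all genes. Between the winters the median was 0.98, the hour of death being unknown.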

How the data were processed

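The authors trimmed the reads with Trim Galore (version 0.6.7), aligned them with HISAT2 (version 2.2.1), counted them on genes in SeqMonk and deposited log2 values for 23816 genes in 116 libraries. The values are named RPKM, but in every library they correspond to whole reads scaled to the library total, without gene length (all values up to 500 reads within 0.02 of a whole read), and the log2 values were used as deposited, in place of a count test. Libraries were poly(A)-selected and strand-specific. All 23435 gene names of the table were found in RefSeq, from which positions were taken.

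Groups were taken from the titles. Genes with reads in at least 9 of 21, 5 of 13, 5 of 12, 3 of 7 and 7 of 28 livers were tested with limma (version 3.58.1, R 4.3.3) and called at an adjusted p under 0.05. The code was tested on simulated data. Named were the 10 smallest p-values in each direction among genes with a mean log2 value of at least 0, and the 2 lipocalins; the rule's parts for called genes named none. Other genes were named from the lists, where the unadjusted p was under 0.05, or after their values were seen. The members and lists were chosen with earlier results of these data known. No 2 libraries agreed within sampling noise (chi-square per degree of freedom of at least 52.0). Single measures were compared by exact permutation. Figures and summaries used Python 3.11.15, numpy 2.4.6, pandas 2.3.3 and matplotlib 3.10.9. Alternatives were a common floor, other filters, a pseudocount of 0.5, 75th percentile scaling, trend and voom, covariates, other sets of livers and each liver left out. Results of some list members are not reported here.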

Additional observations from a re-analysis of the deposited data

Results flagged for a closer look

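In the autumn livers, the value of *MAP3K13* in autumn liver 8, from Pig Farm, lay far below the others, with a gap of 0.514 of the range of the group. This was the only such liver in 27 groups of values examined, where chance alone gives about 1 in 20.

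The seasonal difference differed between kits for 179 genes, and among the named genes for *GABBR1* (NEXTFLEX minus NEBNext -1.95 log2 units), *APC* (-1.0035), *BRWD3* (-2.27) and *RREB1* (-1.68), by the interaction term in limma. The livers of the kits differ in part in month, site and year, which cannot be told apart from the kit. Without winter liver 11 the count was 417.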

How the results depend on the processing

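The count of genes called between seasons was 0 in the 21 livers and was also 0 with year, site, depth or kit as covariates, without June, within Pig Farm, with both sexes, and with an adult liver from Becks (12 June of the second year), labelled male but without M in its title, added. It was 2 with values below 0 set to 0 (*LOC118843345* and *EIF2S3*) and 1 after 75th percentile scaling (*ENTPD3*), and ranged from 0 to 1 when each liver was left out (*ENTPD3* without winter liver 1, 2, 3 or 7 or autumn liver 4). The Pig Farm set, the overlap with values below 0 set to 0, and the lists and p-values of named genes without each liver were chosen after seeing the data. Within the second year the count of 1 became 0 with voom and ranged from 0 to 4 when each liver was left out (4 without winter liver 10, 3 without autumn liver 9). In the NEXTFLEX livers the count of 1 became 6 with values below 0 set to 0, 0 with a mean of at least 0, 2 with log2(CPM + 0.5), 4 with trend and 0 with voom, and ranged from 0 to 14 (14 without NEXTFLEX winter liver 3, 3 without winter liver 2, 0 without winter liver 1 or autumn liver 1, 3 or 4). Between the winters it ranged from 0 to 1. For the difference between kits, 179 became 540 with values below 0 set to 0, 424 with a mean of at least 0 and, chosen after seeing the data, 78 after scaling, 109 with voom and 417 without winter liver 11. With both sexes and kits the difference was -0.0076 for *BRCA1*, -0.023 for *RREB1*, -0.41 for *LOC118842298* and -0.38 for *LOC118843263*, and *LOC118843263* was at -0.12 with site and -0.093 with site and year; the cause was not tested. The skeletal muscle median became 0.32 with values below 0 set to 0. Within the second year the difference of the share on genes became 0.12 and that on the 20 most abundant genes 1.76 percentage points. The unadjusted p was 0.05 or more without any 1 of 14 livers for *CPT1A*, 13 for *INSR*, 12 for *DIO1*, 11 for *IRS1*, 10 for *PLIN2* and *STAT3*, 9 for *NDUFS1*, 8 for *PPARA*, 6 for *NDUFA1*, 5 for *CLOCK*, 4 for *CIDEA*, 3 for *ORM1* and 2 for *CREB3L3*. No paired analysis was possible because the replicate numbers only name the livers. TMM factors for voom were computed by a function written for this work. Depth limits genes with few reads, whose lowest value follows the library.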
